A study of Mus musculus with 15 samples.

Results

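The Hox genes of the Hoxa, Hoxb, Hoxc and Hoxd clusters encode homeodomain transcription factors. They were taken from a table of RNA-seq counts as every gene whose symbol is Hox followed by a cluster letter and a paralog number. This gave 34 of the 17090 genes in the table, namely 11 Hoxa, 9 Hoxb, 5 Hoxc and 9 Hoxd genes. Libraries came from enteric neural crest-derived cells (ENCDC), the precursors of the enteric nervous system (ENS), which were sorted by fluorescence from single embryonic mouse organs. The experiments ask what changes in these cells when signaling by retinoic acid receptors is blocked by RarαDN, a dominant-negative form of the receptor RARα that Cre recombinase switches on.

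At embryonic day (E) 11.5 the stomach ENCDC carried RarαDN LoxP/+, Wnt1Cre and a TdTomato reporter at ROSA26 in 4 libraries, and Wnt1Cre with the same reporter but no RarαDN in 4 control libraries. Wnt1Cre is active in the central nervous system and in many neural crest derivatives, so TdTomato marks more than ENS precursors. At E13.5 the colon ENCDC carried RarαDN LoxP/+ and RETCreERT2-EYFP Tandem in 3 libraries, and RETCreERT2-EYFP Tandem alone in 4 control libraries. Both colon groups had received tamoxifen at E10.5, which activates this Cre in cells that express Ret, and EYFP was used for sorting. All 15 libraries hold 1 embryo each, so the spread is between embryos. Organ, age, Cre driver, reporter and tamoxifen differ together between the experiments and cannot be told apart in any comparison of colon with stomach. Rara may or may not include reads from the RarαDN transgene, which the sources do not say. It had 99.3 ± 24.9 CPM (TMM-scaled CPM, the count as a share of the library's scaled total, mean ± SD, n = 4) in RarαDN stomach ENCDC and 89.3 ± 15.8 CPM (n = 4) in control stomach ENCDC. In the colon, Rara had 64.8 ± 25.5 CPM (n = 3) in RarαDN ENCDC and 71.7 ± 11.3 CPM (n = 4) in control ENCDC.

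Hox genes lie in each cluster in the order in which they are used along the head-to-tail axis. Genes with low paralog numbers, at the 3′ end, are active in anterior tissue and early, and those with high numbers in posterior tissue and later. Retinoic acid induces 3′ Hox genes of several clusters in hindbrain and neural crest, and receptor binding sites have been described near Hoxb1 and Hoxd4. The ENCDC that colonize the bowel arise mainly at the vagal level, where Hox genes of the anterior and middle paralog groups are used, and HOXB5 is known to bind regulatory sequence of Ret, the receptor on which ENS precursors depend.

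RefSeq promoters (GRCm38.p6, from 250 bases before to 50 bases after each transcription start) were available for 22 of the 34 genes. They are shown for 4 genes whose response to RarαDN differed between stomach and colon, all written 5′ to 3′ on the strand of the gene. They are Hoxa5 at chr6:52204538-52204837 (minus strand), Hoxa2 at chr6:52164782-52165081 (minus strand), Hoxd3 at chr2:74711743-74712042 (plus strand) and Hoxd1 at chr2:74762730-74763029 (plus strand). Capitals mark, on either strand, the retinoic acid receptor half-site AGGTCA with its variants (GGGTCA as one, AGTTCA as another, and GGTTCA as the last), the CDX motif TTTATG and the HOX-PBX motif TGATNNAT.
Hoxa5: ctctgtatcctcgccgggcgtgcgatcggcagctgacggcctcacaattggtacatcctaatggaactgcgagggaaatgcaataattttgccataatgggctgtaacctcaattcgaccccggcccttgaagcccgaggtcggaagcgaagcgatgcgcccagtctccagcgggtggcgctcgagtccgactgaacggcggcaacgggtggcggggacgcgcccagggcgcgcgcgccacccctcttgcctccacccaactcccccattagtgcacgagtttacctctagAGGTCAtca
Hoxa2: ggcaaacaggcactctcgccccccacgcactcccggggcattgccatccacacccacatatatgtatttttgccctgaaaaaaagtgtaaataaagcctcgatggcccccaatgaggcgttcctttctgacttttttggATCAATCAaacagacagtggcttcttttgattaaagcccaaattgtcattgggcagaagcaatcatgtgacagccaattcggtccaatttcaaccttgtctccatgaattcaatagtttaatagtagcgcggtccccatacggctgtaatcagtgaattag
Hoxd3: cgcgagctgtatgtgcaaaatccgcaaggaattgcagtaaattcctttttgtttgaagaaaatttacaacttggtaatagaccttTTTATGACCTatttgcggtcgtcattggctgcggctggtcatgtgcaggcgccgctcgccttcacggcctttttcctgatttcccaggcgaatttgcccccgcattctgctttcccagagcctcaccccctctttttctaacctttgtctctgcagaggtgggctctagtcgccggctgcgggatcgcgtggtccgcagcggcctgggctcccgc
Hoxd1: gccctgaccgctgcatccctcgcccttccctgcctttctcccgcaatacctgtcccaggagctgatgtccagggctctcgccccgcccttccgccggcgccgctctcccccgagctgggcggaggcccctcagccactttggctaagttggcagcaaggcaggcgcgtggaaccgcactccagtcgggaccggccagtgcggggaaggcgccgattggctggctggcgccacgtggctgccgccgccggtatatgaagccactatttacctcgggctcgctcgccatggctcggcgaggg
The Hoxa5 promoter held 1 half-site, after the transcription start. The Hoxd3 promoter held 1 half-site read on the opposite strand, whose letters overlap its CDX motif. The Hoxa2 promoter held only the HOX-PBX motif, and the Hoxd1 promoter held none of these letters. A half-site was present in 11 of the 24 Hox promoters, or 45.8%, against 43.7% of all 32851 promoters in the table. The CDX motif was in 20.8% of Hox promoters and in 11.9% of all promoters, and the HOX-PBX motif in 16.7% and 8.85%. Pairs of half-sites in direct repeat with a spacing of 2 bases (DR2) or 5 bases (DR5) were in 0 of the 24 Hox promoters, and in 0.268% and 0.0974% of all promoters. These are descriptions of short windows, and they say nothing of binding.

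Libraries held 6065029 to 12121327 counts over the transcripts used. After thinning to 6000000 counts, 12342 to 13113 genes were expected to be detected in RarαDN stomach libraries and 14258 to 14515 in control stomach libraries, against 13354 to 13733 in RarαDN colon libraries and 12287 to 12962 in control colon libraries. The group with fewer detected genes was thus the one with less Hox RNA in each experiment, and the part of this in the results was not tested. All 10 ENCDC markers, such as Ret and Sox10, were detected in each group. Their summed level was 1516 to 1930 CPM in RarαDN stomach libraries and 3523 to 4846 CPM in control stomach libraries, against 3140 to 3494 CPM in RarαDN colon libraries and 2254 to 2860 CPM in control colon libraries. The 6 melanoblast markers in the table summed to 1159 to 2655 CPM in RarαDN stomach libraries and 19.3 to 31.5 CPM in control stomach libraries. Macrophage and other leukocyte markers summed to 31.4 to 180 CPM in RarαDN stomach libraries and 0.085 to 18.7 CPM in control stomach libraries. Erythroid genes summed to 0.703 to 77.8 CPM in RarαDN colon libraries and 20.6 to 4093 CPM in control colon libraries, where libraries 2 and 3 were highest. Mesenchymal and smooth muscle genes summed to 260 to 581 CPM in RarαDN stomach libraries and 139 to 313 CPM in their controls, and to 69.9 to 129 CPM in RarαDN colon libraries and 159 to 303 CPM in their controls. Endothelial genes summed to 35 to 70.5 CPM in RarαDN stomach libraries and 52.7 to 80.5 CPM in their controls, and of 4 tested in the stomach 3 were lower and 1 was higher by edgeR. Kdr, a receptor of endothelial cells, had 0.421 ± 0.784 CPM in RarαDN stomach ENCDC and 35.3 ± 19.4 CPM in control stomach ENCDC, while Egfl7 had 53 ± 14.3 CPM in RarαDN stomach ENCDC and 17.9 ± 4.21 CPM in control stomach ENCDC (n = 4 each). In the colon, endothelial genes summed to 48.1 to 58.5 CPM in RarαDN libraries and 86.1 to 158 CPM in control libraries. Epithelial and mesothelial genes summed to at most 40.5 and 2.62 CPM in any library. In such sorted pools, fewer cells of a type and less RNA per cell cannot be told apart, and the part of these other cell types in the Hox results was not tested.

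Hox RNA in ENCDC came mostly from few genes with low or middle paralog numbers. Only 8 of the 34 genes had a count in every library (Hoxa2, Hoxa3, Hoxa4, Hoxa5, Hoxb2, Hoxb3, Hoxb4 and Hoxb5). In control stomach ENCDC, Hoxd3, Hoxb2 and Hoxa2 gave 69.8% of all Hox counts, and in control colon ENCDC, Hoxb2, Hoxb5 and Hoxd3 gave 64.4%. Levels of different genes were compared per kilobase of transcript. On that scale Hoxb2, which acts in hindbrain patterning, was highest on average in control colon ENCDC with 101 ± 13.1 CPM per kilobase (n = 4), and its range lay clear of Hoxb5, the next gene, with 37.6 ± 12.7 CPM per kilobase. From Hoxb5 down through Hoxa5, Hoxa2, Hoxd3 and Hoxa4 in control colon ENCDC, the ranges of neighbors overlapped. In control stomach ENCDC, Hoxb2 with 56.8 ± 7.92 CPM per kilobase and Hoxd3 with 52.1 ± 10.7 CPM per kilobase overlapped, and both lay above Hoxa2 with 29.2 ± 6.39 CPM per kilobase (n = 4). In RarαDN colon ENCDC, Hoxb5 led with 102 ± 12.7 CPM per kilobase and overlapped Hoxb2 with 98.4 ± 16.0 CPM per kilobase (n = 3). In RarαDN stomach ENCDC, Hoxb2 led with 36.2 ± 19.1 CPM per kilobase, ahead of Hoxa2 with 21.6 ± 4.65 CPM per kilobase (n = 4), and their ranges overlapped.

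**Figure D1:**
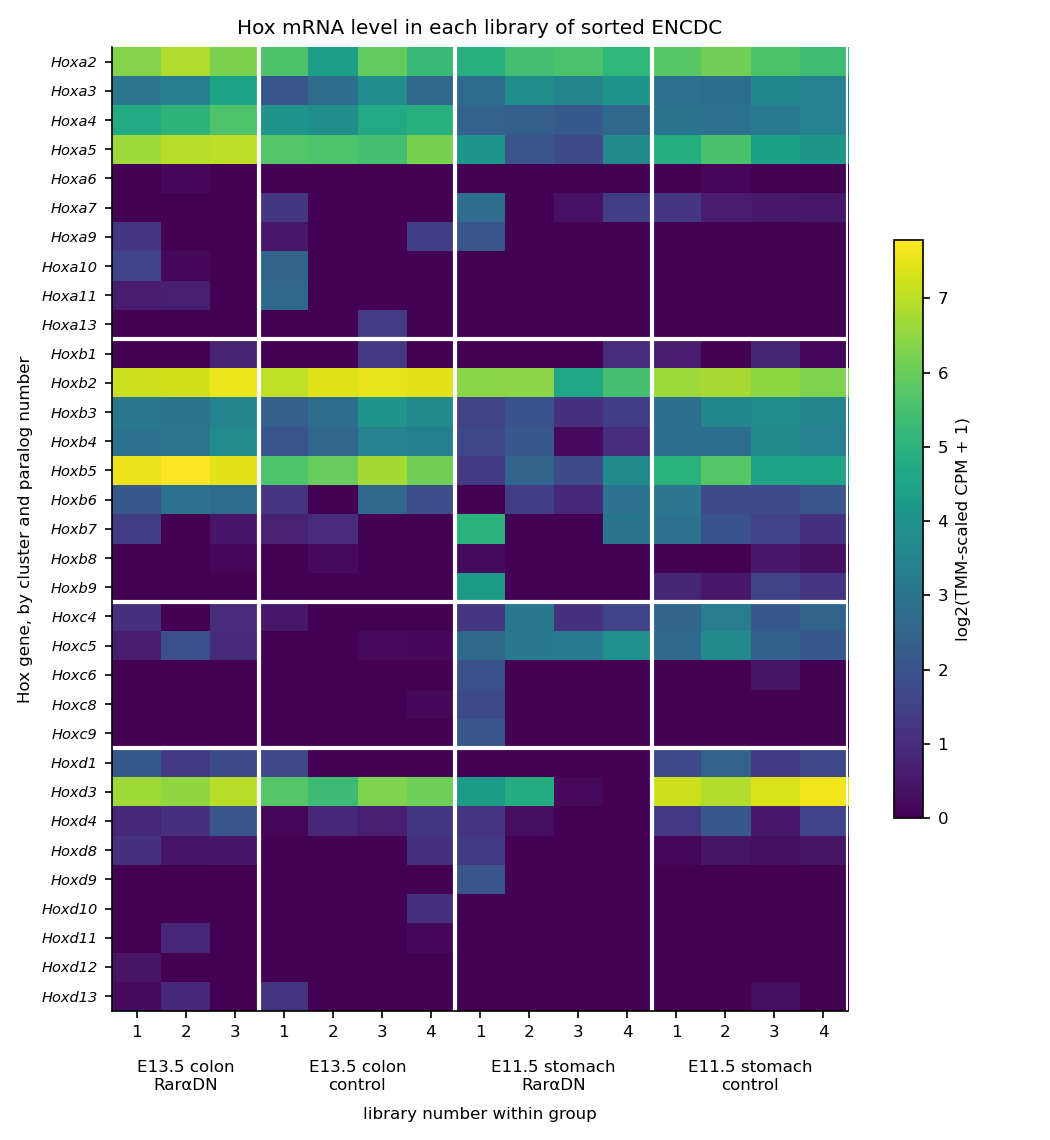
Level of 33 of the 34 Hox genes (rows, by cluster and paralog number) in each of the 15 libraries (columns, by group), as log2(TMM-scaled CPM + 1). White lines separate groups and clusters. Signal is concentrated in some genes of paralogs 1 to 5, and Hoxc4 and Hoxc5 are nearly absent from control colon libraries. RarαDN stomach library 1 holds counts of Hoxb9, Hoxc9 and Hoxd9 that the other 3 RarαDN stomach libraries lack.

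The summed Hox level was 101 to 245 CPM in the 4 RarαDN stomach libraries and 410 to 471 CPM in the 4 control stomach libraries, with no overlap. It was 688 to 812 CPM in the 3 RarαDN colon libraries and 383 to 539 CPM in the 4 control colon libraries, again with no overlap but in the opposite direction. Few genes weighed most in these sums. The largest difference of means in the stomach was that of Hoxd3, with 11.3 CPM in RarαDN and 155 CPM in control libraries. In the colon the largest were those of Hoxb5 (194 CPM in RarαDN, 71.2 CPM in control libraries) and Hoxa5 (117 and 53.5 CPM). Paralogs 1 to 3 gave 57.7 to 85.6% of summed Hox CPM per kilobase in RarαDN stomach libraries and 68.6 to 79.4% in control stomach libraries, which overlapped. In the colon they gave 48.3 to 52.0% in RarαDN libraries and 61.8 to 66.5% in control libraries, and paralogs 4 to 8 gave 48.0 to 51.4% in RarαDN libraries and 32.4 to 37.8% in control libraries. The Hox sum itself was higher in RarαDN colon libraries, so a lower share there is not a lower level. Of 7 genes of paralogs 1 to 3 tested in the colon, 1 had a log2 fold change below 0. Paralogs 9 to 13, the genes of posterior tissue, gave at most 0.449% in RarαDN colon libraries and 2.32% in control colon libraries. In the stomach they gave 7.97% in RarαDN library 1, 0% in RarαDN libraries 2, 3 and 4, and at most 0.428% in control libraries. By cluster, Hoxd genes gave 0 to 8.26% in RarαDN stomach libraries and 18.8 to 36% in control stomach libraries. Hoxc genes gave 5.12 to 6.18% in RarαDN stomach libraries and 1.78 to 3.68% in control stomach libraries, with no overlap. These are shares of a Hox sum that was itself lower in RarαDN stomach libraries. The CPM of Hoxc4 and of Hoxc5 overlapped between the stomach groups. In the colon, Hoxc genes gave 0.190 to 0.224% in RarαDN libraries and 0 to 0.107% in control libraries.

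**Figure D2:**
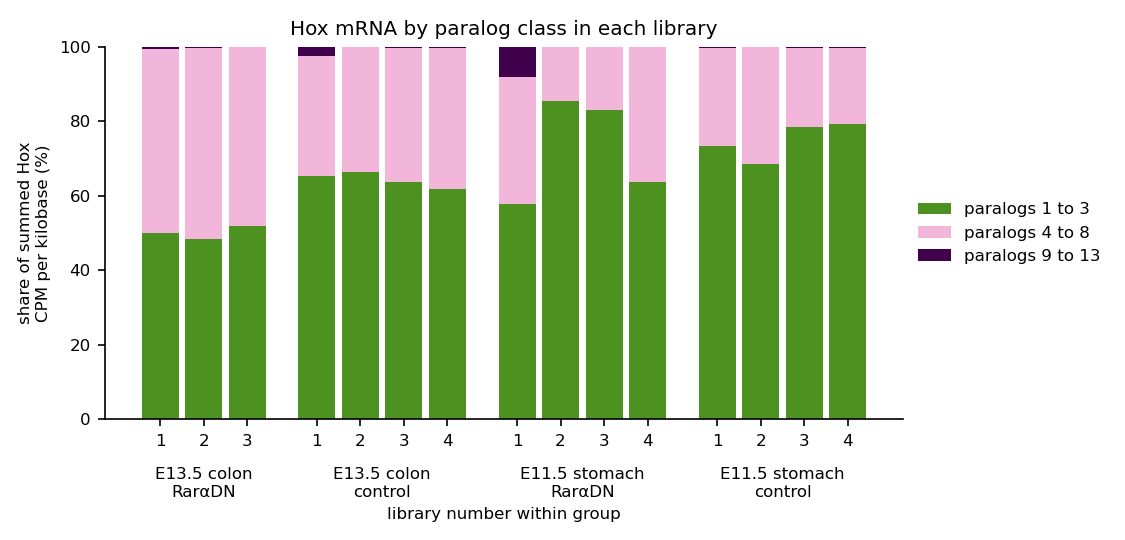
Share of summed Hox CPM per kilobase (bars, in percent, adding to 100) from paralogs 1 to 3, 4 to 8 and 9 to 13 in each library. Paralogs 4 to 8 reach 48.0 to 51.4% in RarαDN colon libraries against 32.4 to 37.8% in control colon libraries, and paralogs 9 to 13 are visible chiefly in RarαDN stomach library 1. Shares do not show the summed Hox level, which differed between RarαDN and control libraries.

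Hoxb5, Hoxb3 and Hoxd1 fell in RarαDN stomach ENCDC, and no Hox gene passed the test in the other direction. Of the 34 genes, 16 passed edgeR's filter on low counts in the stomach libraries. 3 of these 16 were called lower by the edgeR quasi-likelihood test at a Benjamini-Hochberg adjusted p below 0.05 over all 12427 genes tested, where 2.93% of all genes were called lower. 0 of the 16 were called higher, where 3.07% of all genes were. The count of higher genes was also 0 at an unadjusted p below 0.05, with DESeq2 and with limma-voom, and 6 of the 16 were lower at an unadjusted p below 0.05. Over all 12427 genes tested, 1253 were lower and 1154 higher at that unadjusted p. The log2 fold change was below 0 for 13 of the 16 genes, with a median of -0.89 against -0.05 over all genes tested. The groups did not overlap for 7 of the 16 genes, against 15.7% of all genes tested.

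Hoxb5, whose protein binds regulatory sequence of Ret in ENS precursors, had 1.5, 4.86, 2.47 and 12.2 CPM in RarαDN stomach libraries and 30.1, 52.3, 21.6 and 21.7 CPM in control stomach libraries. All 4 RarαDN libraries lay below all 4 controls, and library 4 was the highest of the RarαDN libraries. Hoxb5 fell in RarαDN stomach ENCDC by 2.61 on the log2 scale (SE 0.631, edgeR adjusted p = 0.0347). The change kept its direction with each library left out, but the call was lost without RarαDN library 2 or 3 or any 1 of the 4 controls (edgeR adjusted p = 0.066 to 0.0978). It was also lost with the replicate number as a block (edgeR adjusted p = 0.0512), though the sample titles state no pairing of same-numbered libraries.

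Hoxb3, a neighbor of Hoxb5 that patterns the hindbrain and neck, had 23, 38, 8 and 15 counts in RarαDN stomach libraries and 71, 100, 117 and 124 counts in control stomach libraries, or 1.16 to 2.93 CPM and 6.1 to 12.7 CPM. The groups did not overlap, and the closest pair was RarαDN library 2 and control library 1. Hoxb3 fell by 2.36 on the log2 scale (SE 0.581, edgeR adjusted p = 0.037), a call lost without RarαDN library 3 or 4 or any 1 control (edgeR adjusted p = 0.0522 to 0.167). It was also lost with limma-voom (limma-voom adjusted p = 0.0561). No low-count filter and the replicate number as a block lost it too (edgeR adjusted p = 0.0576 and 0.146). Reads of Hoxb3 and of its antisense gene Hoxb3os, which shares 70.5% of its exonic bases, cannot be told apart in these unstranded counts.

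Hoxd1, which in the mouse acts in sensory neurons, had 0 counts in all 4 RarαDN stomach libraries and 27, 41, 14 and 26 counts in the 4 control stomach libraries. In CPM the controls held 2.32, 4.41, 1.52 and 2.21. Against a floor of 3 counts over the 4 RarαDN libraries, Hoxd1 was at least 34.8-fold lower in RarαDN stomach ENCDC (edgeR adjusted p = 0.017). The call was lost without any 1 control library (edgeR adjusted p = 0.0536 to 0.07), and with the replicate number as a block (edgeR adjusted p = 0.138).

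Hoxd3, a gene of neck and hindbrain patterning, held the largest share of Hox counts in control stomach ENCDC. It had 17.8, 27.4, 0.145 and 0 CPM in RarαDN stomach libraries and 145, 118, 161 and 194 CPM in control stomach libraries. The groups lay far apart, yet the RarαDN libraries split into a pair with 201 and 355 counts and a pair with 1 and 0 counts. The log2 fold change of -3.76 (SE 1.12) did not pass the test (edgeR adjusted p = 0.0786). Of the exonic bases of Hoxd3, 75.0% are shared with the read-through gene Gm28230 on the same strand and 13.1% with Hoxd4.

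Hoxa5, known for its part in lung and foregut development, had 15.2, 3.16, 2.47 and 11.7 CPM in RarαDN stomach libraries and 27.7, 45.5, 20.0 and 16.5 CPM in control stomach libraries. Its groups did not overlap, but RarαDN library 1 came close to control library 4. The log2 fold change was -1.76 (SE 0.611, edgeR adjusted p = 0.132). Hoxb4, a neighbor of Hoxb3, had 0.145 to 3.39 CPM in RarαDN stomach libraries and 6.03 to 12.3 CPM in control stomach libraries, with a log2 fold change of -2.32 (SE 0.824, edgeR adjusted p = 0.142). Hoxa4 had 4.42, 4.16, 3.64 and 5.24 CPM in RarαDN stomach libraries and 7.13, 6.57, 8.39 and 9.95 CPM in control stomach libraries. Its groups did not overlap either, and its log2 fold change was -0.90 (SE 0.502, edgeR adjusted p = 0.369).

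Several other Hox genes with low or middle paralog numbers overlapped between the stomach groups. Hoxb2 had 83.9, 85.8, 22.7 and 43.4 CPM in RarαDN stomach libraries and 99.1, 107, 86.8 and 77.5 CPM in control stomach libraries (log2 fold change -0.66, SE 0.374, edgeR adjusted p = 0.372). Hoxa2, which sets the identity of second-arch neural crest, had 28.9, 43.0, 47.3 and 34.5 CPM in RarαDN stomach libraries and 52.9, 67, 47.7 and 40.0 CPM in control stomach libraries (log2 fold change -0.45, SE 0.264, edgeR adjusted p = 0.39). Hoxa3, needed for thymus and parathyroid development, had 5.57 to 15.6 CPM in RarαDN stomach libraries and 6.03 to 11.0 CPM in control stomach libraries. Hoxc5 had 5.48, 7.94, 8 and 13.9 CPM in RarαDN stomach libraries and 5.33, 11.7, 4.25 and 3.40 CPM in control stomach libraries (log2 fold change 0.50, SE 0.569, edgeR adjusted p = 0.698). Hoxc4 had 1.33, 7.94, 1.16 and 1.94 CPM in RarαDN stomach libraries and 4.81, 8.94, 3.38 and 4.68 CPM in control stomach libraries (log2 fold change -0.82, SE 0.793, edgeR adjusted p = 0.625).

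RarαDN stomach library 1 held posterior Hox RNA that the other RarαDN stomach libraries lacked. It had 201 counts of Hoxb9, 37 of Hoxa9, 37 of Hoxc9 and 36 of Hoxd9, where the 3 other RarαDN stomach libraries had 0 counts of each. In control stomach libraries Hoxb9 had 9, 4, 17 and 15 counts, and Hoxa9, Hoxc9 and Hoxd9 had 0 counts. The same library had 355 counts of Hoxb7, against 0, 0 and 63 in the other RarαDN libraries and 76, 27, 18 and 14 in control libraries. The log2 fold change of Hoxb7 was 1.61 with this library and -0.39 without it, and neither passed the test (edgeR adjusted p = 0.614 and 0.912). It also had 66 counts of Hoxa7, 31 of Hoxc6 and 27 of Hoxc8, against at most 15, 0 and 0 counts in the other 3 RarαDN libraries. Its melanoblast markers summed to 2346 CPM, within the 1159 to 2655 CPM of the other RarαDN libraries, and its mesenchymal markers to 260 CPM, the lowest of the group. It stood above the others in the sum of 10 retinoic acid responsive genes, with 1078 CPM against 443, 459 and 511 CPM, and below them in the sum of 9 TALE cofactor genes, with 242 CPM against 393, 390 and 421 CPM. Whether these go with its posterior Hox counts was not tested.

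Hoxb5 and Hoxa5 rose in RarαDN colon ENCDC. Of the 34 Hox genes, 12 passed the filter in the colon libraries. 2 of these 12 were called higher in RarαDN colon ENCDC, where 2.78% of all 12085 genes were called higher, and 0 were called lower, where 5.55% of all genes were. The count of lower genes was also 0 at an unadjusted p below 0.05, where 1493 of all genes were lower and 1361 higher, and it was 0 with DESeq2 and with limma-voom. The log2 fold change was above 0 for 11 of the 12, with a median of 0.92 against 0.06 over all genes tested. The groups did not overlap for 4 of the 12, against 25.7% of all genes tested.

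Hoxb5 had 189, 220 and 173 CPM in RarαDN colon libraries and 49.1, 61.7, 105 and 68.9 CPM in control colon libraries. Every RarαDN library lay well above the highest control, which was library 3. Hoxb5 rose in RarαDN colon ENCDC with a log2 fold change of 1.49 (SE 0.238, edgeR adjusted p = 0.00884). The call was lost when RarαDN library 1 (edgeR adjusted p = 0.0594) or RarαDN library 2 (edgeR adjusted p = 0.0524) was left out, and when all 4 groups shared 1 fit (edgeR adjusted p = 0.0924).

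Hoxa5 had 98.9, 123 and 128 CPM in RarαDN colon libraries and 50.6, 48.9, 42.9 and 71.5 CPM in control colon libraries. Again all 3 RarαDN libraries were above all 4 controls. Hoxa5 rose with a log2 fold change of 1.16 (SE 0.227, edgeR adjusted p = 0.0149). This call was lost without any 1 RarαDN library (edgeR adjusted p = 0.0646 to 0.0736), when all 4 groups shared 1 fit (edgeR adjusted p = 0.192), and without control libraries 2 and 3, which were rich in hemoglobin transcripts (log2 fold change 0.96, edgeR adjusted p = 0.0901).

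Hoxd3 and Hoxa2 showed no overlap between the colon groups but did not pass the test. Hoxd3 had 101, 89.2 and 126 CPM in RarαDN colon libraries and 51.7, 39.1, 76.2 and 66.7 CPM in control colon libraries (log2 fold change 0.89, SE 0.251, edgeR adjusted p = 0.0568). Hoxa2 had 80.8, 114 and 74.8 CPM in RarαDN colon libraries and 48.3, 19.8, 59.3 and 38.2 CPM in control colon libraries (log2 fold change 1.15, SE 0.338, edgeR adjusted p = 0.0657). DESeq2 and limma-voom each called both of them higher, with adjusted p values of 0.0201 and 0.0375 for Hoxd3 and 0.018 and 0.0387 for Hoxa2. Hoxa4 overlapped, with 26.4, 32.8 and 48.9 CPM in RarαDN colon libraries and 15.4, 13.7, 25.1 and 29.7 CPM in control colon libraries (log2 fold change 0.81, SE 0.378, edgeR adjusted p = 0.225). Hoxb2, the most abundant Hox gene of control colon ENCDC, had 141, 150 and 190 CPM in RarαDN colon libraries and 132, 170, 178 and 174 CPM in control colon libraries (log2 fold change 0.01, SE 0.169, edgeR adjusted p = 0.987). Hoxb3 had 7.81, 7.03 and 10.2 CPM in RarαDN colon libraries and 4.10, 5.89, 15.7 and 11.7 CPM in control colon libraries (log2 fold change -0.12, SE 0.600, edgeR adjusted p = 0.935). Hoxd1 had 22, 13 and 25 counts in RarαDN colon libraries and 20, 0, 0 and 0 counts in control colon libraries, so that its groups overlapped through control library 1 (edgeR adjusted p = 0.496). Hoxc5 and Hoxc4 did not pass the filter, with 3, 23 and 9 counts of Hoxc5 in RarαDN colon libraries and 0, 0, 1 and 1 in control colon libraries, and with 7, 0 and 10 counts of Hoxc4 in RarαDN colon libraries and 4, 0, 0 and 0 in control colon libraries. When all 4 groups shared 1 fit, Hoxc5 passed the filter and was called higher in RarαDN colon ENCDC (log2 fold change 4.09, edgeR adjusted p = 0.0331).

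**Figure D3:**
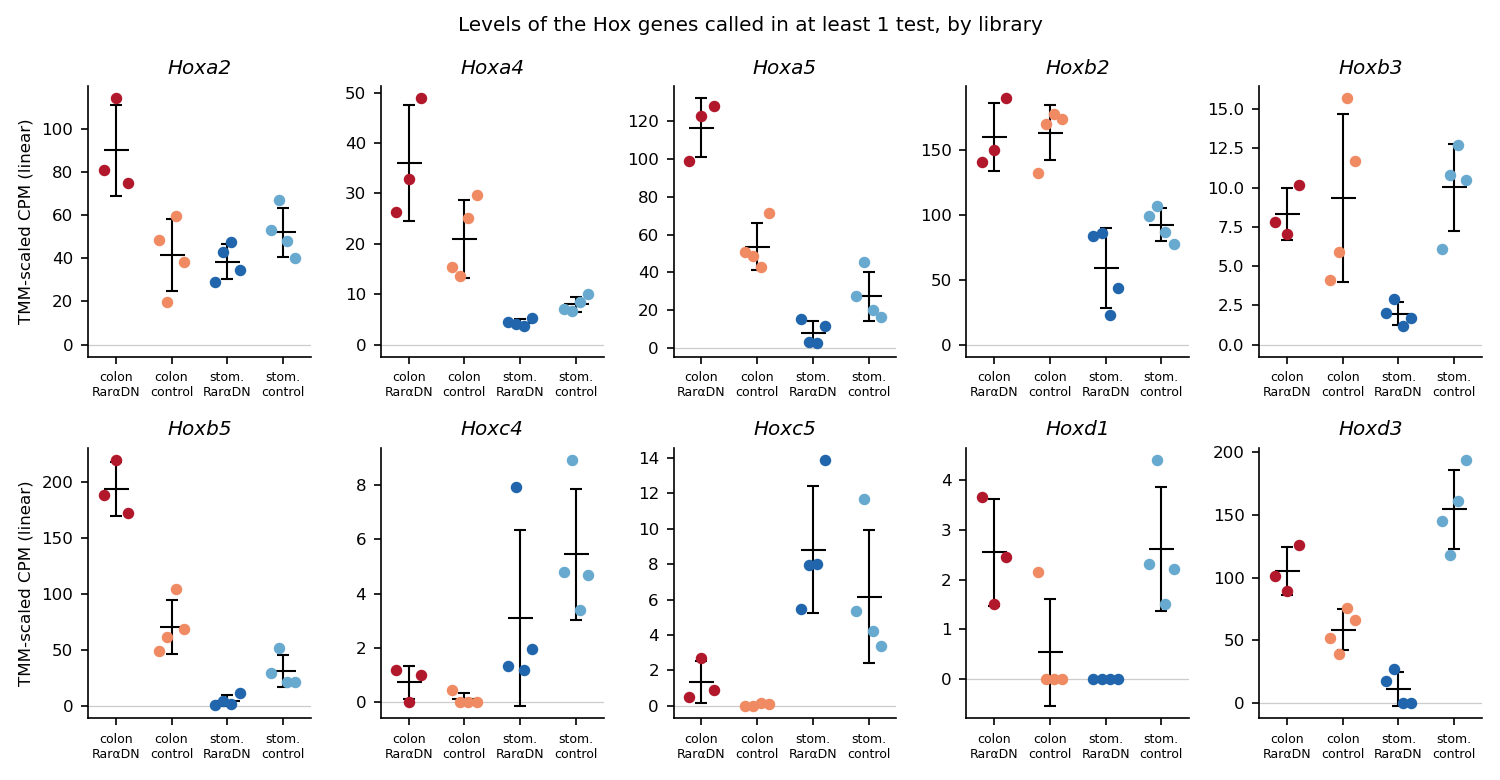
TMM-scaled CPM (linear axes, each with its own range) of the 10 Hox genes called in at least 1 test. Points are libraries, and black marks are the mean and SD of E13.5 colon RarαDN (n = 3), E13.5 colon control (n = 4), E11.5 stomach RarαDN and E11.5 stomach control (stom., n = 4 each). Hoxb5 lies at 173 to 220 CPM in RarαDN colon libraries against 49.1 to 105 CPM in control colon libraries, and at 1.5 to 12.2 CPM in RarαDN stomach libraries against 21.6 to 52.3 CPM in control stomach libraries.

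Hoxb5 was thus called lower in RarαDN stomach ENCDC and higher in RarαDN colon ENCDC. The difference between the responses was tested for each gene in 1 fit of all 4 groups. Of 19 Hox genes that passed the filter in that fit, 5 differed between colon and stomach at an adjusted p below 0.05, where 14.5% of all 13412 genes tested did. The difference, colon minus stomach, was above 0 for 15 of the 19, with a median of 1.96 against 0.12 over all genes tested. Those below 0 were Hoxa7, Hoxa9, Hoxb7 and Hoxb9, whose highest counts were in RarαDN stomach library 1 (66, 37, 355 and 201). Hoxb9 had 0 counts in every colon library, so its difference could not be estimated (SE 6070), though it enters this count and median. Hoxb5 had a difference of 4.03 on the log2 scale (SE 0.690, edgeR adjusted p = 0.00137), and Hoxa5 had 2.87 (SE 0.678, edgeR adjusted p = 0.0101). Both kept the call in all 24 alternatives run, with adjusted p values from 6.44e-07 to 0.00694 for Hoxb5 and from 0.000768 to 0.0268 for Hoxa5. Hoxd3 had a difference of 4.59 (SE 1.23, edgeR adjusted p = 0.0197), which was lost without stomach control library 4 (edgeR adjusted p = 0.0528). This call was also lost with no low-count filter and with the replicate number as a block (edgeR adjusted p = 0.0528 and 0.066). Hoxa2 had a difference of 1.55 (SE 0.437, edgeR adjusted p = 0.0253), which was lost without RarαDN colon library 2 (edgeR adjusted p = 0.0857). The block lost this call as well (edgeR adjusted p = 0.0751). For Hoxd1 the difference also passed (edgeR adjusted p = 0.0189), though not with the block (edgeR adjusted p = 0.0571). Its fitted size depends on the 0 counts of the RarαDN stomach libraries and is no measure of the effect. Hoxb2 was not shown to differ in its response (difference 0.62, SE 0.445, edgeR adjusted p = 0.387), and neither was Hoxb3 (difference 2.18, SE 0.813, edgeR adjusted p = 0.0823).

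**Figure D4:**
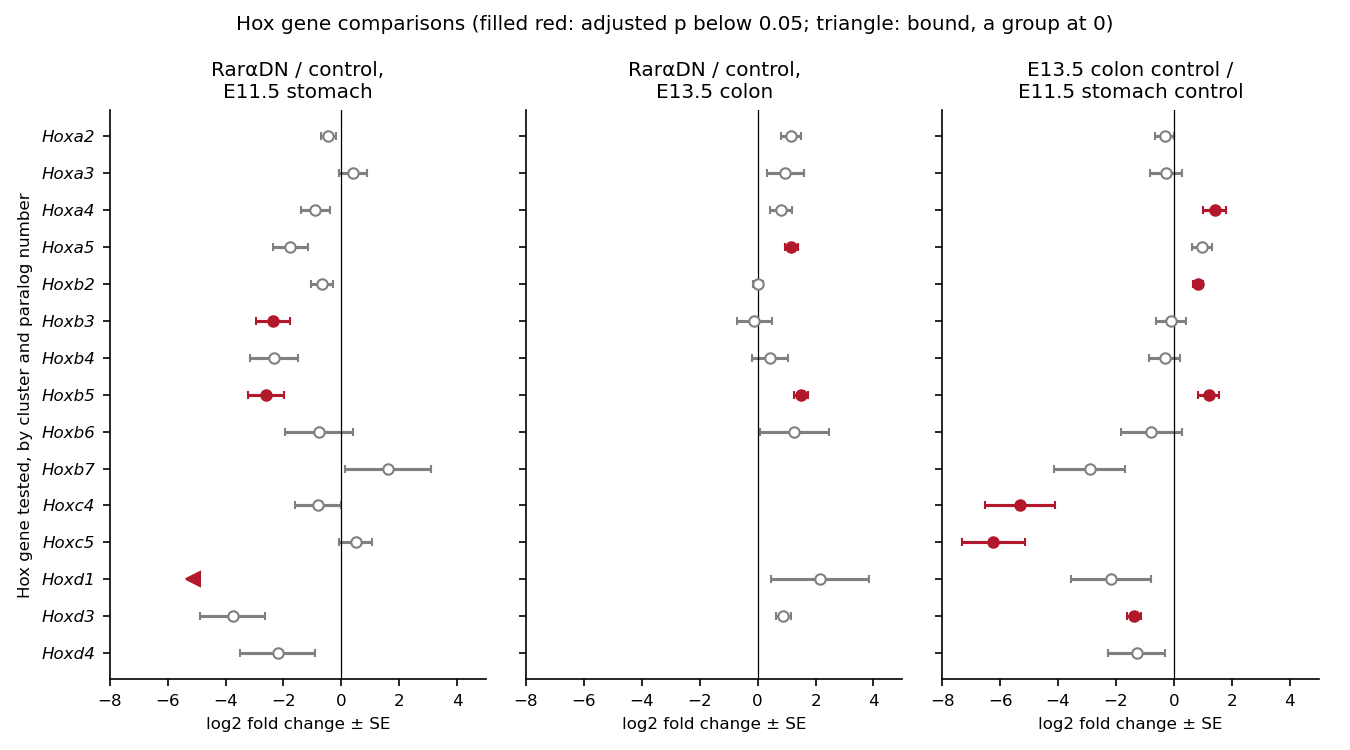
Log2 fold change with its SE (horizontal bars) for 15 of the 16 Hox genes that passed the filter, in 3 comparisons. Filled red symbols passed an edgeR adjusted p of 0.05, open gray symbols did not, and the triangle for Hoxd1 is a bound against 3 counts over the 4 RarαDN stomach libraries. Hoxb5 is called at -2.61 in the stomach and at 1.49 in the colon, and Hoxc4 and Hoxc5 stand out as lower in control colon than in control stomach ENCDC.

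Between control ENCDC of the E13.5 colon and the E11.5 stomach, Hoxc4, Hoxc5 and Hoxd3 were lower and Hoxb2, Hoxa4 and Hoxb5 higher in the colon. Of the 34 genes, 16 passed the filter and 6 were called, 3 higher and 3 lower in the colon. Over all 12225 genes tested, 16.4% were called higher and 14.1% lower in control colon ENCDC, so the shares of Hox genes called were near those of all genes. The median log2 fold change was -0.31 for the Hox genes and -0.18 for all genes tested, and the median of all genes was -0.42 without scaling beyond library totals. The groups did not overlap for 6 of the 16, against 34.1% of all genes tested.

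The anterior Hoxc genes were nearly absent from control colon ENCDC. Hoxc5 had 0, 0, 1 and 1 counts in control colon libraries and 62, 109, 39 and 40 counts in control stomach libraries. Pooled over libraries it was 90.0-fold lower in the colon, with an exact 95% interval of 24.6 to 747 that covers counting error only (edgeR adjusted p = 0.00246). Hoxc4, which is needed for esophageal muscle in the mouse, had 4, 0, 0 and 0 counts in control colon libraries and 56, 83, 31 and 55 counts in control stomach libraries. It was 40.5-fold lower in the colon, with an exact 95% interval of 15.6 to 150 (edgeR adjusted p = 0.00832). Both kept this call with each library left out.

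Hoxd3 was also lower in the colon, with 51.7, 39.1, 76.2 and 66.7 CPM in control colon libraries and 145, 118, 161 and 194 CPM in control stomach libraries. The groups did not overlap, and Hoxd3 fell by 1.39 on the log2 scale in the colon (SE 0.244, edgeR adjusted p = 0.00256). This call was lost when all 4 groups shared 1 fit (edgeR adjusted p = 0.212).

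Hoxb2, Hoxa4 and Hoxb5 were higher in control colon ENCDC. Hoxb2 had 132, 170, 178 and 174 CPM in control colon libraries and 99.1, 107, 86.8 and 77.5 CPM in control stomach libraries, without overlap (log2 fold change 0.84, SE 0.178, edgeR adjusted p = 0.00613). Without colon control libraries 2 and 3, which were rich in hemoglobin transcripts, the Hoxb2 call was lost (edgeR adjusted p = 0.0552). All 4 groups in 1 fit lost it too (edgeR adjusted p = 0.0526). Of the exonic bases of Hoxb2, 58.5% are shared with the antisense gene Hoxb3os. Hoxa4, a gene of neck patterning, had 15.4, 13.7, 25.1 and 29.7 CPM in control colon libraries and 7.13, 6.57, 8.39 and 9.95 CPM in control stomach libraries. These groups did not overlap, and Hoxa4 rose by 1.40 on the log2 scale (SE 0.391, edgeR adjusted p = 0.0206), a call lost without stomach control library 1 or 3 (edgeR adjusted p = 0.0623 and 0.0611). Hoxb5 had 49.1, 61.7, 105 and 68.9 CPM in control colon libraries and 30.1, 52.3, 21.6 and 21.7 CPM in control stomach libraries, where colon control library 1 lay below stomach control library 2. Its log2 fold change was 1.2 (SE 0.348, edgeR adjusted p = 0.0246), a call lost without stomach control library 1, 3 or 4 or colon control library 3 (edgeR adjusted p = 0.0725 to 0.0837), and without colon control libraries 2 and 3 (edgeR adjusted p = 0.137). Hoxa5 had a log2 fold change of 0.98 (SE 0.341) just outside the threshold (edgeR adjusted p = 0.0503).

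The remaining 24 Hox genes were called in no test. They include Hoxa3 and Hoxb4, described above, and Hoxb6, Hoxb7 and Hoxd4, which passed the filter in at least 1 comparison. Hoxb6 had 3.32 to 6.57 CPM in RarαDN colon libraries and 0 to 5.08 CPM in control colon libraries, and 0 to 6.72 CPM in RarαDN stomach libraries and 2.26 to 7.47 CPM in control stomach libraries. Hoxb7 had 0 to 0.981 CPM in control colon libraries and 1.19 to 6.53 CPM in control stomach libraries, a difference that did not pass the test (log2 fold change -2.91, SE 1.22, edgeR adjusted p = 0.0946). Hoxd4, which has a known retinoic acid response element, had at most 3.34 CPM in any library. The other 18 genes passed the filter in none of the 3 comparisons, and 5 genes had fewer than 10 counts in every library. All 11 genes of paralogs 9 to 13 were among these 18, and 139 of their 165 values were 0.

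Counts of posterior genes in the colon were low and uneven between libraries. Hoxa9 had 8, 0 and 0 counts in RarαDN colon libraries and 4, 0, 0 and 13 counts in control colon libraries. Control colon library 1 had 43 counts of Hoxa10 and 48 of Hoxa11, where the 3 other control colon libraries had 0 of each and the RarαDN colon libraries had 12, 1 and 0 counts of Hoxa10 and 3, 5 and 0 of Hoxa11. Hoxb9 had 0 counts in all 4 control colon libraries and 9, 4, 17 and 15 counts in control stomach libraries, so that these groups did not overlap, and it was at least 10.9-fold lower in control colon ENCDC against a floor of 3 counts over the 4 libraries, with no test because it did not pass the filter. Hoxa13 and Hoxd13, which pattern the hindgut and its end, had counts in few libraries. Hoxa13 had 11 counts in control colon library 3 and 0 in every other library. Hoxd13 had 1, 7 and 0 counts in RarαDN colon libraries and 12, 0, 0 and 0 in control colon libraries. Posterior paralogs were thus at or near 0 in most colon libraries at this depth, where 3 counts correspond to at most 0.498 CPM in any library. The cDNA was amplified and carried no molecular identifiers, so such floors and intervals cover counting error only.

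Genes that act with or upstream of Hox genes were counted from lists. The TALE proteins of the Pbx, Meis and Pknox families bind DNA together with HOX proteins, and all 9 of their genes passed the filter in each comparison. Meis1 was the 1 lower in RarαDN stomach ENCDC, with 25.5 ± 8.87 CPM against 56.7 ± 7.28 CPM in control stomach ENCDC (log2 fold change -1.18, SE 0.301, n = 4 each, edgeR adjusted p = 0.0445). Meis3, which in zebrafish acts in hindbrain and enteric crest, was the 1 lower in RarαDN colon ENCDC, with 77.5 ± 4.45 CPM (n = 3) against 139 ± 34.3 CPM (n = 4) in control colon ENCDC, a log2 fold change of -0.80 (SE 0.204, edgeR adjusted p = 0.0387). Of this list, 2 genes were lower in control colon than in control stomach ENCDC. One of them, Pknox2, had 0.694 ± 0.633 CPM in control colon ENCDC and 25.5 ± 8.98 CPM in control stomach ENCDC (n = 4 each, edgeR adjusted p = 0.00151).

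Of 8 upstream regulators listed, 5 were in the table. In the stomach 3 passed the filter, and 1 of them, whose values are not reported here, was called higher in RarαDN ENCDC. Over all genes tested there, 3.07% were called higher. The 2 genes Egr2 and Gbx2 passed the filter both in the colon and between the controls, and neither was called. Egr2, which sets up hindbrain segments, had 3.48 ± 3.61 CPM in RarαDN colon ENCDC and 1.78 ± 3.56 CPM in control colon ENCDC (edgeR adjusted p = 0.817), and 2.72 ± 1.05 CPM in control stomach ENCDC. Gbx2 had 1.97 ± 1.31 CPM in RarαDN colon ENCDC and 0.522 ± 0.782 CPM in control colon ENCDC (edgeR adjusted p = 0.525), and 2.71 ± 1.28 CPM in control stomach ENCDC. Of 10 retinoic acid responsive genes, 5 passed the filter in the stomach, and 1, Crabp2, was called higher, with 407 ± 102 CPM in RarαDN and 52.2 ± 14.8 CPM in control ENCDC (log2 fold change 2.95, SE 0.266, n = 4 each, edgeR adjusted p = 0.000184). In the colon 6 passed the filter and 2 were called higher in RarαDN ENCDC. These were Dhrs3, an enzyme that limits retinoic acid synthesis (62.8 ± 4.54 CPM, n = 3, against 15.0 ± 8.71 CPM, n = 4, edgeR adjusted p = 0.0192), and Rarb, the gene of a retinoic acid receptor (329 ± 35.7 CPM against 210 ± 41.9 CPM, edgeR adjusted p = 0.0409). Between the controls, Rarb was higher and Crabp2 lower in the colon (log2 fold changes 1.77 and -1.70). Of 19 Polycomb and trithorax genes, which keep Hox clusters silent or active, 0 were called by edgeR in either RarαDN comparison, where 1 of the 19 was higher and 1 lower at an unadjusted p below 0.05 in each organ. Over all genes tested, 1154 of 12427 were higher and 1253 lower at that p in the stomach, and 1361 of 12085 higher and 1493 lower in the colon. The most abundant, Rbbp4, had 1071 ± 281 CPM in RarαDN and 1002 ± 209 CPM in control stomach ENCDC (edgeR adjusted p = 0.904). 1 of the 19, Phc1, was lower in control colon than in control stomach ENCDC, with a log2 fold change of -0.94 (SE 0.295, edgeR adjusted p = 0.0338).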

How the data were processed

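RNA was taken from fluorescence-sorted ENCDC of 15 single-embryo organs. The authors amplified cDNA (SMART, Nextera XT), sequenced it single-end on an Illumina sequencer, combined 2 runs, discarded repeat and ribosomal reads, and mapped the rest with RUM. What they deposited, and what was used, are unnormalized counts for each RefSeq transcript. Genome build and annotation are not given in the sources at hand. Columns of log2 values and of the authors' own fold changes and FDR in that table were not used. 1 marked transcript per gene was kept, giving 17090 genes, and 0 columns lacked a sample. Hoxb13, Hoxc10, Hoxc11, Hoxc12 and Hoxc13 are not analysed here.

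TMM scaling and the filterByExpr filter were applied to counts within each comparison, followed by the robust quasi-likelihood test of edgeR 4.0.16 (R 4.3.3), at a Benjamini-Hochberg adjusted p of 0.05 over all genes tested. Each comparison was fitted on its own libraries, and the difference between colon and stomach responses on all 15. Tests were tried on simulated data first. Levels per kilobase used GENCODE M21 transcript lengths, known for all 34 Hox genes. Promoters came from RefSeq on GRCm38.p6. A group at 0 was given a floor of 3 counts over its libraries. Alternatives were RLE factors, no scaling, other filters, no robust step, DESeq2 1.42.0, limma-voom (limma 3.58.1), all 4 groups in 1 fit, the transcript of largest total, a replicate block, thresholds of 0.01 and 0.2, each library left out, and control colon libraries 2 and 3 left out together. Figures were drawn with matplotlib 3.10.9. Values in every library are given for Hox genes called in any test, other Hox genes by ranges and counts, and up to 3 called genes of lowest adjusted p per background list, or the 2 of highest mean level where none was called. Hox genes with unusual values in 1 library, and those without overlap between groups, were also named, after their values were seen. The Hox genes and lists were chosen with earlier results of these data known. Values of some genes, 1 Hox gene among them, are not reported here, though they entered all fits, counts and sums.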

Additional observations from a re-analysis of the deposited data

Results flagged for a closer look

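The effect of RarαDN differed between colon and stomach for 5 Hox genes by a test of the difference itself, colon minus stomach on the log2 scale. The differences were 4.025 for Hoxb5, 4.592 for Hoxd3, 2.871 for Hoxa5 and 1.549 for Hoxa2 (edgeR adjusted p = 0.00137, 0.0197, 0.0101 and 0.0253). For Hoxd1 the fitted difference was 9.751 (edgeR adjusted p = 0.0189), a value that depends on the RarαDN stomach libraries having 0 counts. Organ, age, Cre driver, reporter and tamoxifen cannot be told apart in these differences.

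Control colon library 1 lay apart from the 3 other control colon libraries for 3 genes by Dixon's criterion on log2(CPM + 1). Hoxb2 had 132 CPM there, against 170 to 178 CPM in the others. Hoxc4 had 0.431 CPM and Hoxd1 had 2.16 CPM there, where the others had 0 counts of both. With 3 of 4 libraries at 0 the criterion is always met, so the values of Hoxc4 and Hoxd1 are no more than single libraries with counts. The criterion was applied to 47 groups of 4 libraries, only for genes that passed the filter in at least 1 comparison, and chance gives about 1 in 20 groups.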

How the results depend on the processing

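No log2 fold change or difference of a called Hox gene changed direction in 324 recomputations, of which 277 kept the call and 47 lost it. The losses were uneven. In the stomach, Hoxb5 lost its call in 7 of 18 alternatives, Hoxb3 in 9 of 18 and Hoxd1 in 5 of 18. In the colon, Hoxb5 lost it in 3 of 18 and Hoxa5 in 5 of 18. Calls between the controls were lost in 0 to 7 of 19, and differences in response in 0 to 3 of 24. The 3 Hox genes lower in RarαDN stomach ENCDC became 0 at a threshold of 0.01, 6 at 0.2, 5 with DESeq2 and 5 with all 4 groups in 1 fit, and 0 to 3 with a library left out. The 2 higher in RarαDN colon ENCDC became 1 at 0.01, 4 at 0.2, 4 with DESeq2, 4 with limma-voom, 1 without control colon libraries 2 and 3, and 0 to 2 with a library left out. With all 4 groups in 1 fit neither was kept, and the 1 gene called was Hoxc5. The 3 higher in control colon than in control stomach ENCDC became 1 at 0.01, 1 with all 4 groups in 1 fit, 1 without control colon libraries 2 and 3, and 1 to 4 with a library left out, and the 3 lower became 2 with all 4 groups in 1 fit, which lost Hoxd3, and 3 to 4 under the other alternatives run. The 5 genes whose response differed became 1 at 0.01, 10 at 0.2, 8 with DESeq2 and 4 to 6 with a library left out. The shares of all genes called under these other settings were not counted. The changed numbers of Hox genes are therefore no result about Hox genes as such. The cause was not tested.

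Replicate numbers are shared between groups, but same-numbered libraries did not deviate together (correlations 0.31, -0.258, 0.098 and 0.133 in the stomach, 0.056, 0.045 and 0.051 in the colon). With the number as a replicate block, 0 Hox genes were called lower in RarαDN stomach ENCDC and 2 differed in their response. Genes of paralogs 9 to 13 did not pass the filter in any of the 3 comparisons and were not tested there.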
